A study of Mus musculus with 24 samples.

Results

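Transcripts of 10 UDP-glycosyltransferase genes were followed in whole mouse kidneys: Ugt2b5, Ugt2b34, Ugt2b35, Ugt2b36, Ugt2b37, Ugt2b38, Ugt3a1, Ugt3a2, Ugt1a6a and Ugt8a. The genes were chosen by name, every probe whose accession maps to them was taken, and they are 10 of the 27958 genes tested on the array. They carry 12 probes, 1 each except for Ugt2b35 and Ugt3a2, which have a second probe. All 10 genes passed the filter on dim probes, and the brighter probe of each gene was used.

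UDP-glucuronosyltransferases sit in the endoplasmic reticulum and join glucuronic acid, taken from UDP-glucuronic acid, to steroids, bile acids, bilirubin, retinoids and drugs. The resulting glucuronides are water-soluble and leave the cell through membrane transporters for the urine or bile, and in the kidney most of this activity is found in the proximal tubule. The Ugt2b genes are separate genes in a cluster, whereas the Ugt1a genes have their own first exons and share the remaining ones. The label glucuronosyltransferase does not cover every member: the Ugt3a enzymes are known to use other sugars, and Ugt8a transfers galactose to ceramide, the first step towards the galactolipids of myelin and tubular membranes.

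The animals were male mice that the labels call young adult and the study's methods place in the fourth to the fifth week of life, either mgb+/+ controls or mgb-/- mutants, a line with an atonic bladder whose kidneys become hydronephrotic before birth. Each mutant kidney had been graded by ultrasound from the parenchyma it retained, which gave 6 control, 7 mild, 5 moderate and 6 severe kidneys, with 1 kidney on each of 24 one-colour arrays. Slides carried 8 arrays, and each of the 3 slides held 2 control kidneys and 6 mutant ones. The grades were not balanced: slides 1, 2 and 3 held 3, 2 and 2 mild, 2, 2 and 1 moderate, and 1, 2 and 3 severe kidneys. Some kidneys may come from the same animal, which is not given in the sources used here, so the p-values measure the spread between kidneys only. On single arrays 56.6% to 71.5% of the probes passed the scanner's background test, and all 16 proximal tubule markers were measured. A level below is the log2 intensity minus the 75th percentile of its array, and levels of different genes come from different probes and cannot be ranked against each other.

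Of the 10 genes, the 5 that fell most all belong to the Ugt2b family, and the stretches before their transcription starts are shown here beside that of Ugt2b34, the family member that did not fall. The 120 bases before each start are written 5' to 3' on the strand of the gene, from the RefSeq windows of build GRCm38.p6. The capitals mark the longest run, with 1 free position, that the stretches of the 5 genes share.
Ugt2b5, chr5:87140341-87140460, minus strand: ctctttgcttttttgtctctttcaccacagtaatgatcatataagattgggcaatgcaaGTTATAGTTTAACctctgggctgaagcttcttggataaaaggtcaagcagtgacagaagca
Ugt2b35, chr5:87000740-87000859, plus strand: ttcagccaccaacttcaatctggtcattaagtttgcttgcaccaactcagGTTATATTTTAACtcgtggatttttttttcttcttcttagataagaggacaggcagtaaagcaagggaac
Ugt2b36, chr5:87092556-87092675, minus strand: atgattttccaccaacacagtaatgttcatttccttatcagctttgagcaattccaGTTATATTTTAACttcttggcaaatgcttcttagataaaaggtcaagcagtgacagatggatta
Ugt2b37, chr5:87254789-87254908, minus strand: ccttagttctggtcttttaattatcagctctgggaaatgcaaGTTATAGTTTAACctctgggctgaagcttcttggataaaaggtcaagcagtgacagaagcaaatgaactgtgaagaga
Ugt2b38, chr5:87424204-87424323, minus strand: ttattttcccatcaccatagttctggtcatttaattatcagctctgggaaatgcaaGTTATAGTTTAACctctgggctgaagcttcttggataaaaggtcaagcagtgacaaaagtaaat
Ugt2b34, chr5:86906938-86907057, minus strand: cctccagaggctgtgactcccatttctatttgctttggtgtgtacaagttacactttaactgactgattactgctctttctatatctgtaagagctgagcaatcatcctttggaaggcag

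The shared run, GTTATANTTTAAC, has 12 fixed letters and began 61 bases before the start in Ugt2b5, 70 in Ugt2b35, 64 in Ugt2b36, 78 in Ugt2b37 and 64 in Ugt2b38. It was taken from these 5 stretches, so its presence in them is no finding. On either strand it stood in 6 of the 32851 windows of 250 bases before a start, 0.0183% of them, and the only window outside the 5 genes was that of Pklr, the pyruvate kinase of liver and red cells. The closest stretch of Ugt2b34, gttacactttaac, began 73 bases before its start and differed at 1 of the 12 fixed letters. In Ugt3a1 the closest stretch differed at 2 letters, in Ugt1a6a at 5 and in Ugt8a at 6. The window table has no entry for Ugt3a2.

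Over the full 250 bases, the 10 pairs among the 5 genes had an identity of 52.5% to 85.6% (median 58.6%), with Ugt2b37 and Ugt2b38 the most alike. The same measure between Ugt2b34 and the 5 genes lay between 48.7% and 53.2%. For the 21 pairs that include Ugt3a1, Ugt1a6a or Ugt8a it lay between 36.8% and 52.3% (median 44.5%). The lowest values among the 5 genes are thus close to the highest of those pairs. Among the short motifs searched on both strands of the 9 windows, the Ahr core GCGTG was present in Ugt8a and in 28.2% of all windows. Neither the Nrf2 motif TGACNNNGC (10.2% of all windows) nor the HNF4 motif CAAAGTCCA (0.383%) was present in any of the 9. A match or its absence describes the letters of the window only.

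To ask how the family differed between mutant and control kidneys, all 18 mgb-/- kidneys were compared with the 6 controls. Of the 10 genes, 7 were called lower at an adjusted p under 0.05 with a fold of at least 2, against 1.26% of all genes tested, and 0 were called higher, against 1.82%. They were Ugt2b5, Ugt2b35, Ugt2b36, Ugt2b37, Ugt2b38, Ugt3a1 and Ugt8a. The median log2 change of the 10 genes was -2.15, beside 0.01 for all genes. In bulk RNA, fewer cells of a type and less RNA per cell cannot be told apart.

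Ugt2b5 encodes a major steroid- and xenobiotic-conjugating enzyme of mouse liver and kidney. Its level in the 6 control kidneys had a lowest value of 2.70, a median of 3.06 and a highest value of 3.26. In the mild kidneys the corresponding levels were -2.47, -1.24 and 2.24, and in the severe kidneys -2.92, -1.63 and 3.21. The 5 moderate kidneys had levels of -0.83, 3.35, -2.74, 0.01 and 2.60. Controls formed a tight group, whereas the mutant kidneys ran from far below it to within it: 16 of 18 lay under the lowest control and the other 2, moderate replicate 2 and severe replicate 6, lay inside or above the control range. The fitted log2 change was -3.48 (SE 0.82, adjusted p = 0.00899, limma), an 11.1-fold lower geometric mean.

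The other 4 fallers of the family are expressed in liver and kidney and conjugate steroids and phenols to differing extents. Ugt2b35 fell by 3.44 on the log2 scale (SE 0.78, adjusted p = 0.00754), Ugt2b36 fell by 3.41 (SE 0.77, adjusted p = 0.00754), Ugt2b37 fell by 3.21 (SE 0.77, adjusted p = 0.00991) and Ugt2b38 fell by 2.82 (SE 0.72, adjusted p = 0.0142) by limma. Under the lowest control stood 16 of 18 mutant kidneys for Ugt2b35, Ugt2b36 and Ugt2b37 and 15 of 18 for Ugt2b38. The spread rose with the fall: the SD of Ugt2b37 was 0.15 in controls and 1.93 in mgb-/- kidneys, and that of Ugt2b38 was 0.21 and 1.82. The Ugt2b35 probe was not well above background in 3 mutant kidneys, moderate replicate 3 and severe replicates 4 and 5, so the size of its fall there is not measured, and with normexp background correction its change was -2.24 (adjusted p = 0.0021, limma). The second Ugt2b35 probe was above background on 0 arrays. Probes of these related genes may hybridise with each other's transcripts, and this was not tested.

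**Figure D1:**
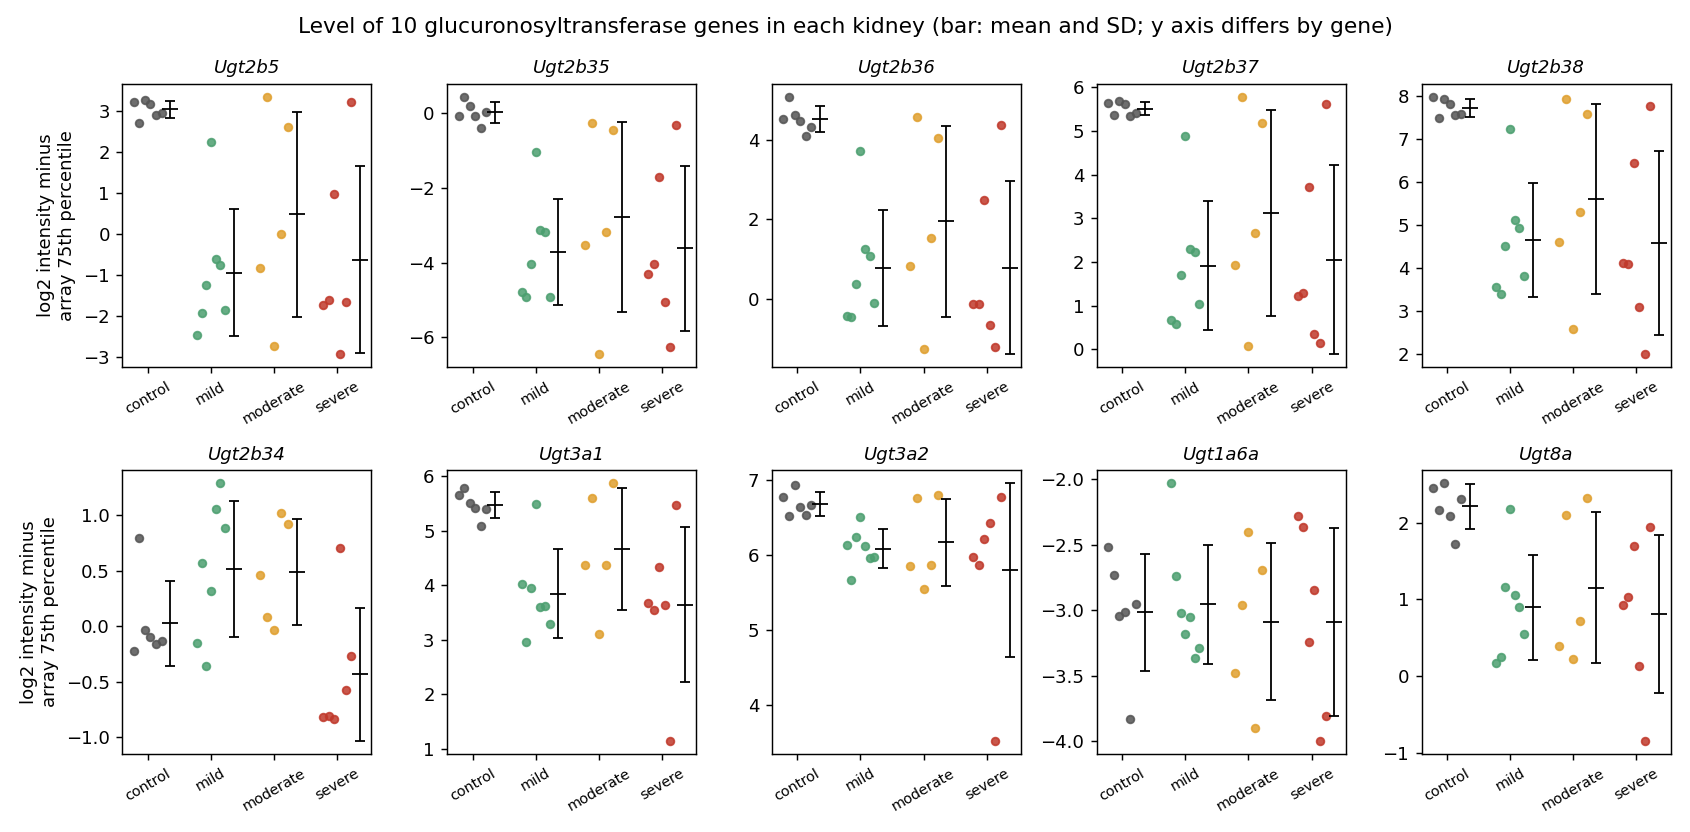
Level of each of the 10 genes (log2 intensity minus the 75th percentile of the array; the y axis differs by gene) in 6 control, 7 mild, 5 moderate and 6 severe kidneys. Points are kidneys in order of replicate number, and the bar beside them is the group mean with its SD. For Ugt2b5 the controls lie between 2.70 and 3.26 and the mutant kidneys between -2.92 and 3.35.

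Ugt3a1 and Ugt3a2 are adjacent genes on chromosome 15. Control kidneys had a lowest Ugt3a1 level of 5.09, a median of 5.46 and a highest of 5.78. Mild kidneys had 2.95, 3.62 and 5.49, the 5 moderate kidneys 4.36, 5.60, 3.10, 4.38 and 5.87, and severe kidneys 1.15, 3.66 and 5.47. Of the mutant kidneys 14 of 18 lay under the lowest control, and the log2 change was -1.47 (SE 0.46, adjusted p = 0.0357, limma), a 2.77-fold fall. That call did not hold without any 1 of the 6 controls (adjusted p = 0.051 to 0.077) or without mild replicate 2 (adjusted p = 0.0501). Ugt3a2 had a narrower shift: its controls lay between 6.52 and 6.94 and its log2 change was -0.67 (SE 0.29, adjusted p = 0.13, limma), short of the threshold, with 15 of 18 kidneys under the lowest control. Its second probe gave a difference of -0.69.

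Ugt8a, the ceramide galactosyltransferase, had control levels with a lowest value of 1.73, a median of 2.25 and a highest value of 2.52. In mild kidneys these were 0.17, 0.91 and 2.18, in severe kidneys -0.84, 0.98 and 1.94, and the 5 moderate kidneys had 0.40, 2.11, 0.23, 0.72 and 2.32. The log2 change was -1.27 (SE 0.35, adjusted p = 0.0192, limma), a 2.42-fold fall, and 14 of 18 mutant kidneys lay under the lowest control. Without control replicate 3 the change was -1.21 and missed the threshold (adjusted p = 0.0557, limma).

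Ugt2b34 and Ugt1a6a did not pass the test. The control levels of Ugt2b34 had a median of -0.11 within -0.22 to 0.79, and the mutant kidneys reached from -0.84 to 1.29. The difference was 0.17 (95% interval -0.41 to 0.75, adjusted p = 0.752, limma), with 8 of 18 kidneys under the control mean. Ugt1a6a, a phenol-conjugating enzyme whose gene answers to Ahr ligands, differed by -0.02 (95% interval -0.50 to 0.46, adjusted p = 0.968, limma). Its levels were -3.83 to -2.52 in controls and -3.996 to -2.03 in mutant kidneys, above background on every array. Where the Ugt1a6a probe lies in the shared exons or the private one is not given in the sources used here.

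Differences within each slide had the same sign as the whole for the 7 called genes. For Ugt2b5 they were -3.94, -2.35 and -4.14 on slides 1, 2 and 3, for Ugt3a1 -1.35, -1.52 and -1.54, and for Ugt8a -1.43, -0.85 and -1.54. For Ugt2b34 the within-slide differences were 0.45, -0.11 and 0.17, and for Ugt1a6a -0.28, 0.17 and 0.05, so these had no common sign.

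The grades were then compared with controls separately, to see whether the falls grew with hydronephrosis. All comparisons with control share the same 6 control kidneys. In mild kidneys 5 of 10 genes were called lower, against 1.06% of all genes, and 0 higher, against 1.15%, and those that fell were the 5 Ugt2b genes. In severe kidneys 7 of 10 were called lower, against 1.73%, and 0 higher, against 2.99%, with Ugt3a1 and Ugt8a added. In moderate kidneys limma called 0 of 10, against 0.2% of all genes lower and 0.529% higher. Of the 10 genes 6 had an unadjusted p under 0.05 there, a count with no background, since the share of all genes was not computed. Array quality weights gave 6 calls there, in a fit that called 1657 genes in all, 5.93% of those tested, beside 204 without weights. In mild kidneys 6 of the 10 genes had every kidney under the lowest control (the 5 Ugt2b genes and Ugt3a2), against 6.17% of all genes. In moderate and severe kidneys 0 of 10 did, against 1.84% and 2.2%, nor did any over all 18 mutant kidneys, against 0.49%.

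Ugt2b5 changed by -3.98 (SE 0.96, adjusted p = 0.018) in mild, -2.55 (SE 1.05, adjusted p = 0.197) in moderate and -3.66 (SE 1.00, adjusted p = 0.0196) in severe kidneys by limma. Ugt3a1 changed by -1.63 (adjusted p = 0.0672), -0.81 (adjusted p = 0.459) and -1.83 (adjusted p = 0.0272) in the same order. Ugt8a changed by -1.32 (adjusted p = 0.0666), -1.06 (adjusted p = 0.221) and -1.40 (adjusted p = 0.0343). The smallest estimates were those of the moderate kidneys, 2 of which lay near the controls. The difference between grades was tested directly: severe against mild gave 0 calls of 10 (2 genes lower and 127 higher among all genes, 0.00715% and 0.454%), moderate against mild gave 0 (also 0% of all genes), and severe against moderate gave 0 (0.00358% of all genes in each direction). At an unadjusted p under 0.05 these comparisons had 1, 0 and 1 genes, and Ugt2b34 was that gene in both. The share of all genes at that threshold was not computed.

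The intervals of severe minus mild were wide for the Ugt2b genes that fell. For Ugt2b5 the difference was 0.32 with a 95% interval of -1.57 to 2.21, and for Ugt2b38 -0.06 with -1.76 to 1.64. For Ugt8a the difference was -0.08 with an interval of -0.91 to 0.75, and for Ugt1a6a -0.13 with -0.73 to 0.46. These intervals do not show that the grades had the same level. Calls in single grades changed when single kidneys were left out, over all genes as well. In mild kidneys 2 genes were called without control replicate 3, mild replicate 2 or mild replicate 7. Those fits called 385, 397 and 422 of all genes (1.38%, 1.42% and 1.51%), beside 618 with every kidney. In severe kidneys 4 were called without severe replicate 1, 2 or 5. There 975, 887 and 933 of all genes were called (3.49%, 3.17% and 3.34%), beside 1318.

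**Figure D2:**
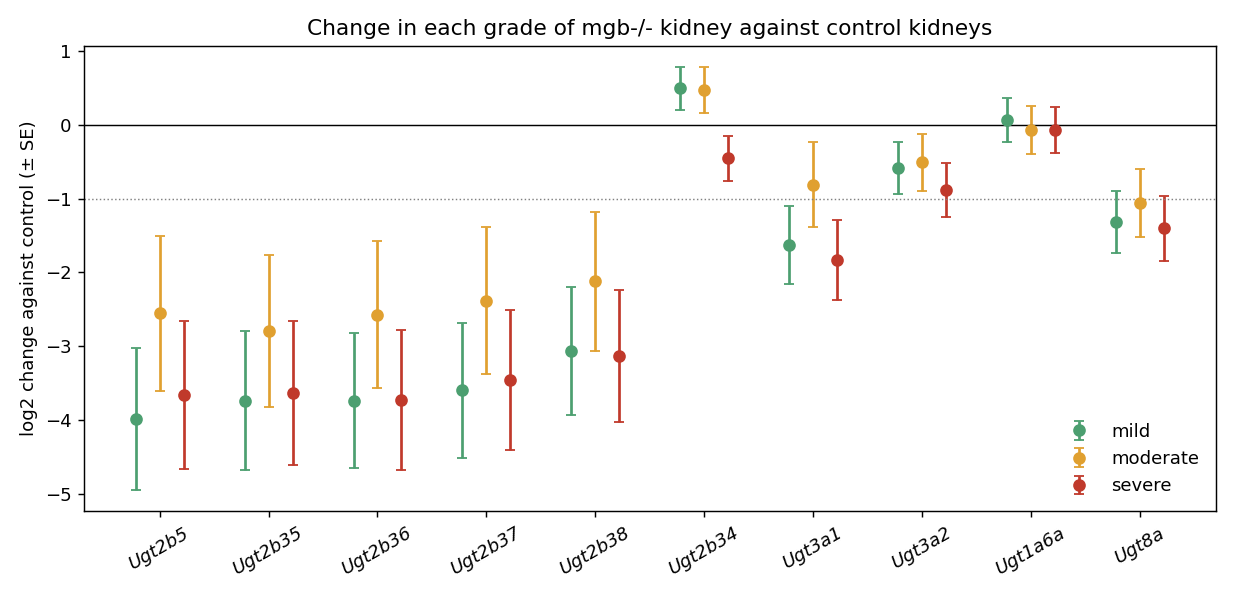
Log2 change of each gene in mild, moderate and severe mgb-/- kidneys against the same 6 controls, with the SE of the limma fit; the dotted line marks a 2-fold fall. The 5 Ugt2b genes on the left lie between -3.98 and -2.12 in every grade, and Ugt2b34 is above 0 in mild and moderate kidneys and below 0 in severe ones.

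Ugt2b34 was the member with the smallest p between grades. Mild kidneys had a lowest level of -0.36, a median of 0.57 and a highest level of 1.29, the 5 moderate kidneys 0.46, 0.08, -0.04, 1.01 and 0.92, and severe kidneys -0.84, -0.69 and 0.70. Of the severe kidneys 5 of 6 lay under every moderate kidney, and the exception, severe replicate 4, had the highest severe value. Severe minus mild was -0.95 (SE 0.29, unadjusted p = 0.0033, adjusted p = 0.182, limma), short of the threshold. It was called without severe replicate 4 (-1.18, adjusted p = 0.0344, limma), in a fit that called 150 of all genes, 0.537%. It was also called with array quality weights (-1.46, adjusted p = 0.00274, limma), which raised the calls over all genes from 129 to 238. Without the 8 kidneys with adrenal signal, which left mild replicates 1 and 3 as the only mild kidneys, it was -0.41 (adjusted p = 0.965, limma).

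The mutant kidneys differed widely among themselves. For Ugt2b5 the widest gap between neighbouring levels, 1.26, separated 4 kidneys at 2.24 or higher from 14 at 0.98 or lower. The 4 kidneys were mild replicate 4, moderate replicates 2 and 5 and severe replicate 6, so each grade contributed. This split was chosen after the values were seen and was not tested. Averaged over the 5 falling Ugt2b genes, moderate replicate 2 lay 0.11 above and severe replicate 6 lay 0.03 below the control mean (log2). Moderate replicate 5 stood at -0.37 and mild replicate 4 at -0.75 on that measure. Severe replicate 3 was intermediate at -1.78, and the remaining 13 kidneys ranged from -5.71 to -2.89. Moderate replicate 2 had 0 of the 10 genes under the lowest control, severe replicate 6 had 1, moderate replicate 5 had 4 and mild replicate 4 had 6. Each of the other 14 had 8 to 10. The share of all genes under the lowest control was not computed for single kidneys, so these counts have no background beside them.

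The levels in these 4 kidneys were also read for Slco1a1, an organic anion transporter of the proximal tubule that is male-biased in mice, and for Acsm3, a medium-chain acyl-CoA synthetase. Slco1a1 was at 3.21 in moderate replicate 2 and 3.13 in severe replicate 6, inside the control range of 2.56 to 3.59, and Acsm3 at 6.80 and 6.77, inside 6.05 to 7.00. Moderate replicate 5 and mild replicate 4 lay under the controls for both genes, at 1.24 and 0.98 for Slco1a1 and at 4.92 and 4.70 for Acsm3.

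**Figure D3:**
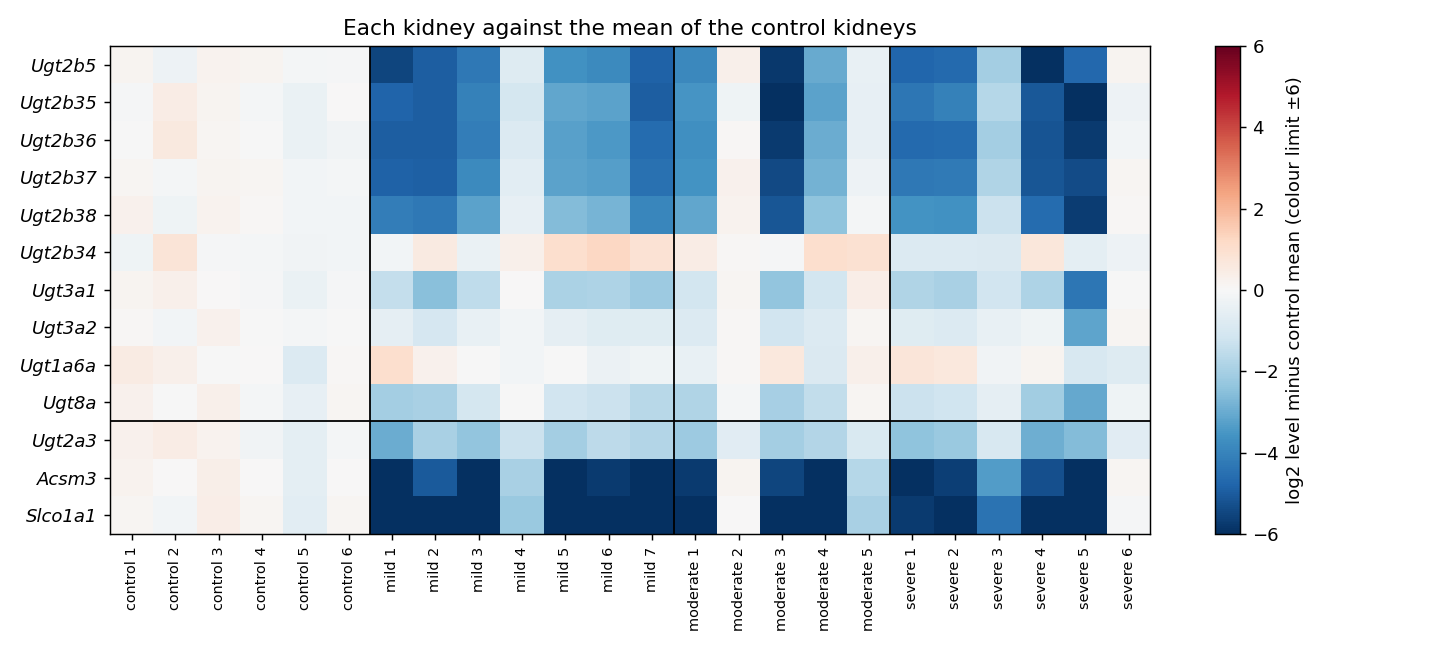
Each of 24 kidneys (columns, by group and replicate) against the mean of the 6 controls for the 10 genes and, under the line, Ugt2a3, Acsm3 and Slco1a1; colour is the log2 level minus the control mean, limited at 6 either way. Mild 4, moderate 2, moderate 5 and severe 6 are pale in the Ugt2b rows, and severe 5 is the darkest kidney for Ugt3a1, Ugt3a2 and Ugt8a.

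Severe replicate 5 was the lowest severe kidney for Ugt3a1, Ugt3a2 and Ugt8a, and also for Ugt2b35, Ugt2b36, Ugt2b37, Ugt2b38 and Ugt1a6a. Its Ugt3a1 level was 1.15, its Ugt3a2 level 3.53 and its Ugt8a level -0.84, and the next severe kidneys stood at 3.55, 5.87 and 0.13. All 10 genes were under the lowest control in this kidney, for which the share of all genes was not computed. Its summed level of the 16 proximal tubule markers was 546 (linear, relative to the 75th percentile of the array), the lowest of all kidneys, against 1769 to 2145 in controls and 1363 to 2091 in the other severe kidneys. Without it 7 genes were still called lower between mgb-/- and control kidneys, but 4 rather than 7 between severe and control kidneys. In the latter comparison the calls over all genes fell from 1318 to 933, and those of the former are not given here.

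Whether the other genes varied together with Ugt2b5 from kidney to kidney was tested over the 18 mgb-/- kidneys, with 9 relations adjusted by Benjamini-Hochberg. Both by Pearson and by Spearman, 7 of 9 were correlated with Ugt2b5. The share of all genes correlated with Ugt2b5 over these kidneys was not computed, so this count has no background beside it. Genes outside the list reached r = 0.951 to 0.982 with Ugt2b5 and are named below. Of the 9 genes, Ugt2b37 followed Ugt2b5 most closely (r = 0.988, rho = 0.963, both permutation p = 1e-05, the smallest that 100000 resamples can give, adjusted p = 2.25e-05). Ugt2b36 had r = 0.983, Ugt2b38 r = 0.959 and Ugt2b35 r = 0.955, with the same permutation p and an adjusted p of 2.25e-05. Outside the Ugt2b cluster, Ugt8a had r = 0.856 (rho = 0.847, permutation p = 2e-05 and 4e-05, adjusted p = 3.6e-05 and 7.2e-05). Ugt3a1 had r = 0.798 (rho = 0.742, permutation p = 3e-05 and 0.00061, adjusted p = 4.5e-05 and 0.000915). Ugt3a2 was weaker at r = 0.519 (rho = 0.546, permutation p = 0.0188 and 0.0201, adjusted p = 0.0242 and 0.0259).

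Ugt2b34 had r = 0.04 (rho = 0.08, permutation p = 0.866 and 0.743, adjusted p = 0.866 and 0.743) and Ugt1a6a r = -0.355 (rho = -0.412, permutation p = 0.148 and 0.0911, adjusted p = 0.167 and 0.103). Without moderate replicate 2 and severe replicate 6, the kidneys farthest from the median of Ugt2b5, r was 0.980 for Ugt2b37, 0.827 for Ugt8a, 0.725 for Ugt3a1 and 0.385 for Ugt3a2, and 6 of 9 relations passed. That of Ugt3a2 no longer passed without those kidneys, an omission that left fewer kidneys and a narrower range of Ugt2b5. The omission of other pairs of kidneys was not tested. Among the 14 kidneys under the widest gap, the relations of the 4 Ugt2b genes held (r = 0.866 to 0.947) and so did that of Ugt8a (r = 0.624, permutation, adjusted p = 0.0329), while Ugt3a1 had r = 0.403 (permutation, adjusted p = 0.201).

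Within the slides, each with 6 mutant kidneys, r of Ugt2b37 with Ugt2b5 was 0.998, 0.987 and 0.997, that of Ugt8a 0.861, 0.894 and 0.935, that of Ugt3a1 0.886, 0.911 and 0.944, and that of Ugt3a2 0.613, 0.738 and 0.681. For Ugt1a6a the within-slide values were -0.516, 0.412 and -0.824, which differ in sign.

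**Figure D4:**
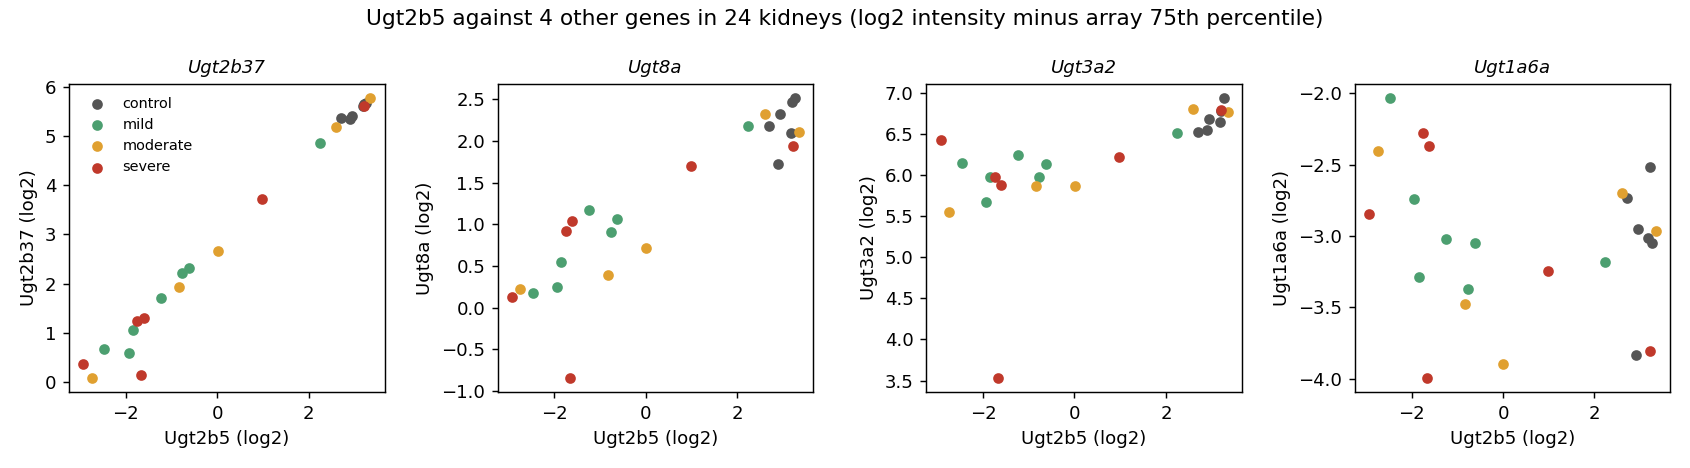
Ugt2b5 (x axis) against Ugt2b37, Ugt8a, Ugt3a2 and Ugt1a6a (y axes) in 24 kidneys, all as log2 intensity minus the 75th percentile of the array and coloured by group. Ugt2b37 follows Ugt2b5 along a line (r = 0.988 over the mutant kidneys), the lowest point in the Ugt8a and Ugt3a2 panels is severe replicate 5, and Ugt1a6a shows no line (r = -0.355).

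The genes outside the list whose levels were most like those of 4 members over the 18 mgb-/- kidneys were taken from 20488 genes above background on all arrays, as a description. Nearest to Ugt2b5 were Sh3bp2, an adaptor protein (r = 0.982), Chst7, a carbohydrate sulfotransferase (r = 0.976), Kif20b, a kinesin (r = 0.960), BC048538 (r = 0.956) and Nhp2, a small nucleolar ribonucleoprotein (r = 0.951). Nearest to Ugt3a1 were Eci3, an enoyl-CoA isomerase (r = 0.984), Acot12, an acyl-CoA thioesterase (r = 0.983), Cbs, the cystathionine beta-synthase (r = 0.972), Ttc39c (r = 0.966) and Pank1, a pantothenate kinase (r = 0.965). Ugt8a had Akr1c21, a hydroxysteroid dehydrogenase (r = 0.967), Slc7a13, an amino acid transporter subunit of the proximal tubule (r = 0.962), and Smlr1 (r = 0.961), besides 2 transcripts without a symbol. Ugt1a6a had Slc10a1, the bile acid transporter of liver (r = 0.927), and Ndor1, an oxidoreductase (r = 0.915), besides 3 transcripts without a symbol. All of these points share the array and its scaling.

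Along chromosome 5 the Ugt2 genes stand in the order Ugt2b34, Ugt2b1, Ugt2b35, Ugt2b36, Ugt2b5, Ugt2b37, Ugt2a3, Ugt2b38, Ugt2a1 and Ugt2a2 in the RefSeq table. The 6 consecutive protein-coding genes from Ugt2b35 to Ugt2b38 were all called lower, Ugt2a3 included. Ugt2a3, a bile acid-conjugating family member that is not among the 10, had control levels of -3.86 to -2.85 (median -3.24) and mild levels of -6.25 to -4.55. Its probe was well above background on 18 of 24 arrays, the 6 controls among them, so the size of its fall is not measured in 6 mutant kidneys. The fitted change was -1.85 (SE 0.30, adjusted p = 0.000825, limma), and 18 of 18 mutant kidneys were under the control mean. On the flanks, Ugt2b34 changed by 0.17 and Ugt2a1 by -0.51 (adjusted p = 0.331), Ythdc1 by 0.14 (adjusted p = 0.313), and the sulfotransferase genes Sult1b1 by 0.24 (adjusted p = 0.571), Sult1d1 by 0.56 (adjusted p = 0.111) and Sult1e1 by -0.34 (adjusted p = 0.504), none of which passed limma. The probes of Ugt2a1 and Sult1e1 were well above background on only 12 and 13 of 24 arrays, so a fall in these 2 genes could have been missed. Ugt2b1 and Ugt2a2 were not tested here. Beside the Ugt3a pair on chromosome 15, Lmbrd2 changed by 0.06 (adjusted p = 0.848) and Capsl by -0.06 (adjusted p = 0.883).

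**Figure D5:**
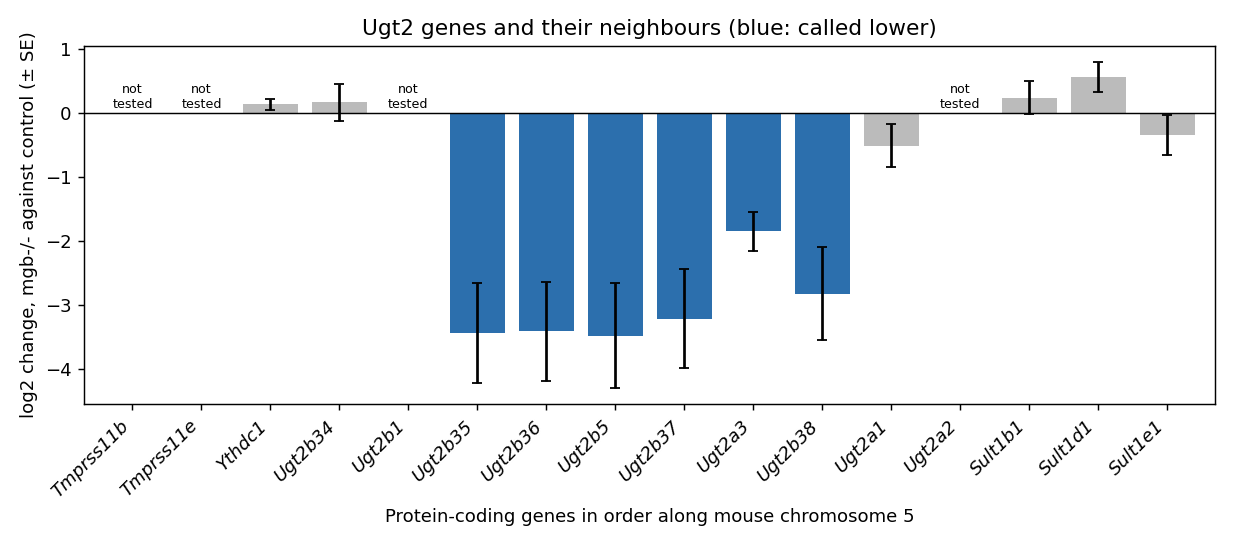
Log2 change between mgb-/- and control kidneys, with the SE of the limma fit, for protein-coding genes in their order along chromosome 5 (spacing is not to scale); blue bars were called lower. The 6 genes from Ugt2b35 to Ugt2b38 changed by -3.48 to -1.85, and the tested genes on both sides did not pass. Of those, Ugt2a1 and Sult1e1 were dim, well above background on 12 and 13 arrays.

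Other genes of the pathway were read from lists in the same comparison of mgb-/- with control kidneys. Of the remaining UDP-glycosyltransferases 7 of 15 were measured, 1 was called lower (Ugt2a3) and 0 higher, with a median log2 change of -0.10. Ugt1a6b and Ugt1a10, which share exons with Ugt1a6a, changed by 0.20 (adjusted p = 0.464) and -0.37 (adjusted p = 0.362). Of 14 genes that supply UDP-glucuronic acid or remove glucuronides, 0 were called in either direction and the median was -0.35. Ugdh, which makes the UDP-glucuronic acid that the enzymes consume, changed by 0.23 (adjusted p = 0.189, limma). Gusb, the lysosomal beta-glucuronidase that hydrolyses glucuronides, fell by 0.58 (adjusted p = 0.0265, limma), less than 2-fold.

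Among 12 transporters of glucuronides and organic anions, 2 were called lower and 1 higher, with a median of -0.36. Slco1a1 fell by 5.65 (SE 1.09, adjusted p = 0.00291) and Slc22a7, an organic anion transporter, fell by 2.28 (SE 0.52, adjusted p = 0.0075). Abcc3, a basolateral exporter of glucuronides, rose by 2.95 (SE 0.52, adjusted p = 0.00146), and 18 of 18 mutant kidneys were above the control mean. Other conjugating enzymes had 2 of 15 measured genes called lower and 0 higher (median -0.42): Inmt, an amine methyltransferase, fell by 4.30 (adjusted p = 0.0176), and Nat8, a cysteine conjugate acetyltransferase, fell by 1.03 (adjusted p = 0.0408).

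Regulators known to act on these genes had 1 of 18 called, Cebpb, a leucine zipper factor of the acute phase, which rose by 1.58 (SE 0.20, adjusted p = 7.41e-05, limma), and a median of 0.06. Hnf4a changed by -0.59 (adjusted p = 0.517), Ahr by 0.29 (adjusted p = 0.117), and Nfe2l2, the gene of Nrf2, by 0.28 (adjusted p = 0.0724). Of 11 measured targets of the xenobiotic receptors, 1 was called higher, Cyp1a1 at 1.33 (adjusted p = 0.0335), and 0 lower.

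The study names Ugt2b5, Ugt2b37 and Ugt8a among transcripts higher in males. It reports them as lower in these same mgb-/- kidneys, with qPCR of some of its sexually dimorphic transcripts. Of the 9 further genes of the study's male-biased list all 9 were called lower (median -3.46), led by Slco1a1, Acsm3 (-5.01), Cyp4a12a (-3.51) and Cyp4a12b (-3.48). Of its 6 female-biased genes all 6 were called higher (median 2.25), led by Serpina6 (4.31) and Abcc3. The study chose these lists on these same kidneys, so they are not independent evidence of their direction. A list of 7 genes known to be induced by androgen in mouse kidney had 2 called lower, Slc22a28 (-2.46) and Akr1c21 (-1.91), and 0 higher. Kap, the kidney androgen-regulated protein, changed by 0.00 (adjusted p = 0.997).

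Markers of other cells were read beside these changes. Of 16 proximal tubule markers 0 were called between mgb-/- and control kidneys (median -0.15), and 2 were called lower in severe kidneys (median -0.52). Their summed level was 1769 to 2145 in controls, 1566 to 1962 in mild, 1431 to 2490 in moderate and 546 to 2091 in severe kidneys. The 4 kidneys above the widest gap in Ugt2b5 had summed levels of 1846, 2012, 2490 and 2025. Over the 18 mutant kidneys the log2 of this sum was correlated with Ugt3a2 (r = 0.952, rho = 0.862, permutation p = 1e-05 and 2e-05, adjusted over 10 genes p = 1e-04 and 0.0002), and without the 2 farthest kidneys r was 0.756. By Pearson 7 of 10 genes passed, all but Ugt2b5, Ugt2b34 and Ugt1a6a, and by Spearman 6 of 10, without Ugt8a. The share of all genes correlated with this sum was not computed. Ugt3a1 had r = 0.783 (permutation, adjusted p = 0.0006) and Ugt2b38 r = 0.590 (permutation, adjusted p = 0.00552), which without the 2 farthest kidneys, one of them severe replicate 5, were 0.506 and 0.458. For Ugt2b5 the sum gave r = 0.372 (rho = 0.379, permutation p = 0.133 and 0.125, adjusted p = 0.148 and 0.139). Within slides these were 0.4999, 0.986 and 0.862 for Ugt3a2 and 0.138, 0.636 and 0.418 for Ugt2b5.

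All 7 urothelial markers were called higher in severe kidneys (median 3.53), with summed levels of 6.35 to 18.8 in controls and 72.1 to 239 in severe kidneys, and their part in the results was not tested. Of 6 fibroblast markers 1 was called higher in severe kidneys (Acta2, smooth muscle actin). Their summed level was 59.4 to 86.5 in controls, 70.1 to 114 in mild, 32.2 to 210 in moderate and 89.9 to 293 in severe kidneys, with the highest value in severe replicate 5 and the lowest in moderate replicate 5, and their part was not tested. Adrenal markers, summed to 0.213 to 0.464 in controls, reached 251 in mild replicate 4 and 239 in moderate replicate 1, kidneys with Ugt2b5 at 2.24 and -0.83. Without those kidneys 7 of the 10 genes were called lower between mgb-/- and control kidneys, and the share of all genes called in that fit is not given here. In 6 further mutant kidneys the adrenal sum was over 2 times the highest control, at 0.933 to 5.40. The 8 kidneys were mild replicates 2, 4, 5, 6 and 7, moderate replicates 1 and 3 and severe replicate 4. Moderate replicates 2 and 5 and severe replicate 6, which lay above the widest gap in Ugt2b5, were kept. Without all 8 the change of Ugt2b5 was -2.89 and 0 of 10 genes were called (lowest adjusted p = 0.0742, limma). That fit called 200 of all genes, 0.715%, beside 863 with every kidney. The parts of adrenal signal and of which kidneys remained were not tested.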

How the data were processed

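Total RNA of 24 whole kidneys had been labelled with Cy3 and hybridised to Agilent 8x60K mouse arrays. The authors deposited scanner output (Agilent Feature Extraction 10.10, per the labels) whose processed intensity is background-subtracted and detrended within an array, not normalised between arrays, with raw median intensities and spot flags of 0 or 1, which serve as other values. A further deposited table holds intensities normalised between arrays by a method not given in the sources used here.

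The processed intensity was taken to log2 and the 75th percentile of non-control spots (496 to 968 units) was subtracted array by array. Outlier spots were left out, spots of a probe averaged, a probe kept if 5 or more arrays had it well above background (38834 of 55681), and the brightest probe of each gene used. Probes were named through RefSeq accessions (26762; 28919 kept their identifier). Coordinates are those of the RefSeq promoter windows only. No spot was saturated; precision is limited by how many arrays there are. In 324 genes an array had no value.

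limma 3.58.1 in R 4.3.3 fitted 2 groups for mgb-/- against control and 4 groups for the grades, with Benjamini-Hochberg adjustment over all genes. The steps were tested on simulated data. Correlations over kidneys used two-sided permutation tests with 100000 resamples (scipy 1.17.1). Figures used matplotlib 3.10.9. The members and lists were chosen with earlier results of these data known. Named genes are all members, at most 4 called genes a list, and Ahr, Nfe2l2, Hnf4a, Ugdh and Gusb, with some named regulators and motifs not reported here. Neighbours in gene order, flanking genes, Ugt1a6b, Ugt1a10 and Kap were named after their values were seen. Alternatives were other scalings, background, filters, probes, blocks, weights, thresholds, samples in the fit, and the omission of each kidney or of kidneys with adrenal signal. Protein sequences were not analysed here.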

Additional observations from a re-analysis of the deposited data

Results flagged for a closer look

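Within groups of 5 to 7 kidneys, 7 of 40 gene and group combinations had a highest or lowest kidney far from the others, where chance flags about 1 in 20 independent groups. The combinations are not independent, since the same kidneys recur and the Ugt2b genes vary together, and 4 of the 7 are a single kidney. Mild replicate 4 was the highest of 7 mild kidneys for Ugt2b5 (2.24, next -0.62), Ugt2b36 (3.70, next 1.26), Ugt2b37 (4.87, next 2.31) and Ugt3a1 (5.49, next 4.03). Severe replicate 5 was the lowest of 6 severe kidneys for Ugt3a2 (3.53, next 5.87). For Ugt2b34, control replicate 2 (0.79, next -0.03) and severe replicate 4 (0.70, next -0.27) were the highest of their groups. Mild replicate 4 also held the highest adrenal marker sum and severe replicate 5 the lowest proximal tubule marker sum, and the part of either in these values was not tested.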

How the results depend on the processing

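With other scalings, background corrections, filters on dim probes, probe rules, thresholds, slide as a block and other samples in the fit, 4 to 7 members were called lower in mgb-/-, mild and severe kidneys against control, and 0 higher. Deviations from the group mean were correlated between kidneys of different groups. Same-numbered kidneys had a median of 0.004 with 10 of 33 pairs over 0.1, and kidneys of other numbers 0.003 with 58 of 182. The highest value, 0.646, was that of mild replicate 1 with severe replicate 1. A median near 0 cannot show that no kidneys are paired, and pairing is not given in the sources used here. The replicate block gave 5 calls in mgb-/-, 0 in mild and 4 in severe kidneys against control. With it the calls over all genes fell from 618 to 278 (0.994%) in mild and from 1318 to 988 (3.53%) in severe kidneys. Those in mgb-/- kidneys are not given here. Array quality weights gave 6 calls in moderate kidneys against control, 1 in severe against mild and 1 in severe against moderate kidneys, while the genes called in all rose from 204 to 1657, from 129 to 238 and from 2 to 424. Without the 8 kidneys with adrenal signal, an omission chosen after seeing the data, 0 were called in mgb-/- and 0 in mild kidneys, and Ugt2b34 turned to -0.20 between mgb-/- and control kidneys. Those fits called 200 and 4 of all genes (0.715% and 0.0143%), beside 863 and 618, and mild replicates 1 and 3 were the only mild kidneys left. Without the 2 with strong signal Ugt1a6a turned to 0.016. Leaving out each kidney in turn gave 5 to 7 calls in mgb-/-, 2 to 7 in mild and 4 to 8 in severe kidneys, 0 to 1 in severe against mild kidneys, and a difference of -0.18 to 0.079 for Ugt1a6a between mgb-/- and control kidneys. Where 2 were called in mild kidneys, 385 to 422 of all genes were, beside 618 with every kidney. Where 4 were called in severe kidneys, 887 to 975 of all genes were, beside 1318.

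Severe minus mild, where only Ugt2b34 kept its sign throughout, turned for Ugt2b35 to -0.10 (replicate block), for Ugt2b36 to -0.018 (median scaling), -0.0089 (slide as a block) and -0.14 (replicate block) and for Ugt2b37 to -0.0032 (replicate block). Ugt2b38 turned to 0.051 (authors' table), 1.05 (weights), 0.86 (without 8 kidneys) and 0.37 (without 2). In the same settings Ugt8a turned to 0.014, 0.52, 0.28 and 0.13. Ugt3a1 turned to 0.46 (weights) and 0.065 (without 2), Ugt3a2 to 0.061 (weights) and Ugt1a6a to 0.031 (normexp). Omitting single kidneys moved it from -0.45 to 0.85 for Ugt2b5, -0.56 to 0.63 for Ugt2b35, -0.71 to 0.49 for Ugt2b36, -0.57 to 0.63 for Ugt2b37, -0.70 to 0.46 for Ugt2b38, -0.57 to 0.29 for Ugt3a1, -0.49 to 0.17 for Ugt3a2, -0.30 to 0.047 for Ugt1a6a and -0.31 to 0.25 for Ugt8a. The cause of these shifts was not tested. Dim signal limits Ugt2b35 in 3 kidneys and Ugt2a3 in 6. It also limits the flanking genes Ugt2a1 and Sult1e1, well above background on 12 and 13 of 24 arrays.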
